A study of Mus musculus with 2 samples.

Results

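The genes described here code for 10 adhesion molecules with immunoglobulin domains that sit on growing axons: Ncam1, Ncam2, L1cam, Nrcam, Chl1, Nfasc, Cntn1, Cntn2, Alcam and Cadm1. They were picked by name, and each was found by its gene identifier in the GENCODE M21 tables, as 10 of 55536 annotated genes and 86 annotated transcripts. The tissue was forebrain of B6NCrl mouse embryos of mixed sex at embryonic day 12.5, with no genetic change or treatment named, in 2 polyA-plus libraries: pool 1 from 120 embryos and pool 2 from 68 embryos. Each library was made from 10 ng of RNA with oligo-dT priming and full-length cDNA amplification, and yielded 33373843 estimated reads over genes in pool 1 against 34406648 in pool 2. Since the labels name a single group without a contrast, the questions were how abundant each molecule was, which of its forms were made, and how far the pools differed. With 2 libraries the smallest p of an exact two-sided sign-flip test is 0.5, so no test was run. Each ± gives the SD of the pools (n = 2). The labels call the pools biological replicates and give them the same donor identifier.

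These proteins hold axons to each other and to their path, and most also pass signals into the growth cone. The NCAM pair binds like to like, and Ncam1 carries polysialic acid, a long sugar chain that loosens contact while tissue is being built. The L1 family (L1cam, Nrcam, Chl1, Nfasc) spans the membrane and ties to ankyrin inside the cell. The contactins are held to the membrane by a lipid anchor and pair with L1-type and Caspr proteins. Alcam binds itself and steers axons, and Cadm1 (also SynCAM1) acts at contacts that become synapses. Many of them are spliced at exons so short that a handful of amino acids enters or leaves the protein.

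The exons below are shown because the splice forms of these genes turn on them. Capitals mark the exon, and the lower-case letters are the 15 bases on each side in the spliced transcript. All were read 5′ to 3′ on the strand of the gene from the GENCODE M21 transcripts (GRCm38). The exon of Ncam1, on the minus strand at chr9:49550540-49550569, is known as VASE and lies in an immunoglobulin domain. The L1cam exon of 12 bases (minus strand, chrX:73855652-73855663) completes a cytoplasmic signal for endocytosis and is known from neurons. The Nrcam exon of 12 bases lies at chr12:44597782-44597793 on the plus strand. The L1cam exon of 15 bases (minus strand, chrX:73867022-73867036) belongs to the neuronal form too. The exons of 18 bases are those of Nrcam (plus strand, chr12:44535057-44535074) and Nfasc (minus strand, chr1:132637864-132637881). The Cadm1 exon of 33 bases (plus strand, chr9:47829377-47829409) falls in the stretch just outside the membrane.
Ncam1 VASE, 30 bases: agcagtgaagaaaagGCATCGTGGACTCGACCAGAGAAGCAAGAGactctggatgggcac
L1cam, 12 bases: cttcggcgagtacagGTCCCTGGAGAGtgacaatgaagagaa
Nrcam, 12 bases: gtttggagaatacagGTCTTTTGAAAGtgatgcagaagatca
L1cam, 15 bases: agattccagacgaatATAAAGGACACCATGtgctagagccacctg
Nrcam, 18 bases: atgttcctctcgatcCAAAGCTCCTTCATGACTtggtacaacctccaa
Nfasc, 18 bases: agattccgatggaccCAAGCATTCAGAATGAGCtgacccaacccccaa
Cadm1, 33 bases: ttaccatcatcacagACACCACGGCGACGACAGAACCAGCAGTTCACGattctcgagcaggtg

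The 12-base exons of L1cam and Nrcam are identical at 8 of 12 bases, or 66.7%, and at 28 of 42 bases when the flanks are included. The 18-base exons of Nrcam and Nfasc share 9 of 18 bases, and 29 of 48 with the flanks. The other pairs of equal length matched less: 5 of 15 bases between Ncam1 and L1cam, 15 of 48 between Ncam1 and Chl1, and 3 of 30 between Ncam1 and Nrcam. These are counts of matching letters without gaps.

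All 10 genes were detected, which here means a level of at least 1 TPM in both pools, against 58.9% of the 22028 protein-coding genes. TPM is a transcript abundance per length, scaled to a fixed total per library, so levels of different genes can be set side by side. The median of their mean levels was 26.94 ± 2.00 TPM, beside 21.91 TPM for all detected protein-coding genes, and 6 of the 10 lay above that value. Ncam1, Cadm1 and Nrcam together made up 67.9% of the summed TPM of the 10 genes, which was 414.1 in pool 1 and 383.7 in pool 2. The highest level, that of Ncam1, was 32.6 times the lowest, that of Cntn1. In order from high to low the genes were Ncam1, Cadm1, Nrcam, Cntn2, L1cam, Nfasc, Alcam, Chl1, Ncam2 and Cntn1. The values of the pools overlapped between Cntn2 and L1cam, between L1cam and Nfasc and between Alcam and Chl1, and did not overlap between the other neighbours. From protein-coding transcripts alone L1cam came after Nfasc, Chl1 and Alcam, at 14.88 TPM, and the values of these 4 overlapped from each to the next.

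Marker genes matched the labelled tissue. Of the forebrain genes Emx1, Dlx1, Lhx2 and Tcf7l2, all 4 were detected, and of 4 genes of midbrain, hindbrain or spinal cord 0 were, with En2 and Hoxa2 listed at 0 in both pools. Postmitotic neuron markers (9 of 9 detected) had a summed level of 1774 TPM in pool 1 against 1652 TPM in pool 2, and radial glia markers (8 of 8) had 2589 and 2412 TPM. Markers of mesenchyme and meninges (7 of 7), endothelium (5 of 5) and erythroid cells (6 of 6) were also present, so each level is an average over several cell types. In such bulk tissue, fewer cells of a type and less RNA per cell cannot be told apart.

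**Figure D1:**
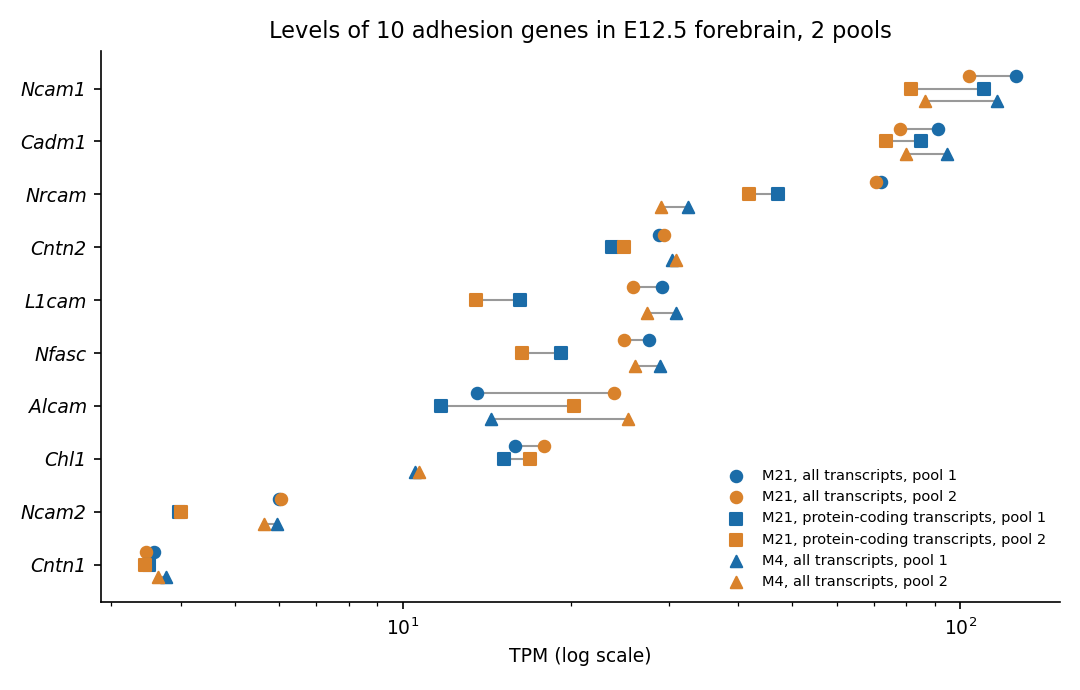
Level of each gene in TPM (log axis) in pool 1 (blue) and pool 2 (orange), from all M21 transcripts (circles), from protein-coding M21 transcripts only (squares) and from the M4 tables (triangles); grey lines join the pools. Ncam1 and Cadm1 lie at the top in all 3 readings, the gap between the pools is widest for Alcam, and Nrcam falls to a mean of 30.74 TPM in M4, against 71.27 TPM in M21.

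Ncam1 (ENSMUSG00000039542.16, chromosome 9, 49502136 to 49798925, minus strand, GRCm38) was the most abundant of the group. Its level was 126.0 TPM in pool 1 and 103.5 TPM in pool 2, a mean of 114.7 ± 15.9 TPM, from 14247 and 11143 estimated reads. By mean TPM it ranked 1415 among all protein-coding genes. Ncam1 is made in 3 main sizes: NCAM140 and NCAM180, which cross the membrane, and NCAM120, which has a lipid anchor. Ncam1-204, a transcript of 848 codons without the long exon that defines NCAM180, had 90.04 TPM in pool 1 and 66.49 TPM in pool 2. Ncam1-205, which carries that exon of 801 bases and whose annotated coding sequence lacks its start, had 17.79 and 13.03 TPM. The long exon was thus in 16.2% of the TPM spanning it in pool 1 and in 16.0% in pool 2. Ncam1-201, whose 725 codons match the length of NCAM120, had 0.19 TPM in pool 1 and 0.04 TPM in pool 2, from 10 and 2 estimated reads. The transmembrane forms without the long exon were therefore the bulk of the coding RNA in both pools.

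The VASE exon printed above was assigned to 16.1% of the spanning TPM in pool 1 and 16.0% in pool 2. A 15-base exon and a 3-base exon further along had the same shares, because Ncam1-205 carries all of these together with the 801-base exon and no other transcript with reads carries any of them. Their 4 shares are therefore 1 measurement of 1 annotated transcript, and the tables cannot show whether single molecules carried VASE without the long exon. Exons of 48 and 42 bases, known from the muscle form of Ncam1, occur only in Ncam1-206, a fragment of 146 bases that had 0 reads in both pools. The deposited intervals for that fragment have upper bounds of 2.94 TPM in pool 1 and 2.83 TPM in pool 2.

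A further transcript, Ncam1-207, held 16.3% of the Ncam1 TPM but 2.61% of its reads. It is a non-coding transcript of 914 bases with 2 exons, and it begins at the start of the gene. It had 15.59 TPM in pool 1 and 21.82 TPM in pool 2, opposite in direction to Ncam1-204 and Ncam1-205, and its deposited intervals (13.2 to 17.1 and 19.1 to 23.5 TPM) did not overlap. Without it, the single non-coding entry of the gene, Ncam1 averaged 96.03 ± 20.4 TPM. The antisense gene Gm11149, which overlaps Ncam1 on the other strand, had 1.33 TPM in pool 1 and 1.89 TPM in pool 2. Whether reads were counted by strand is not given in the sources used here, so reads of such overlapping genes are uncertain.

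Ncam2 (also OCAM, ENSMUSG00000022762.18, chromosome 16, 81200697 to 81626828, plus strand) was far lower than its sister gene. Its level was 6.01 TPM in pool 1 and 6.05 TPM in pool 2, a mean of 6.03 ± 0.0283 TPM from 530 and 569 reads. Ncam2 is best known from axons of the olfactory system and also has a transmembrane and a lipid-anchored form. The longer coding transcript, Ncam2-202 with 837 codons, had 2.61 and 2.97 TPM, and Ncam2-201 with 727 codons had 1.36 and 1.03 TPM. Their deposited intervals in the 2 pools overlapped. Ncam2-204, an entry of 931 bases with a retained intron, held 26.2% of the TPM and 5.17% of the reads. The unclassified gene Gm49555 overlaps Ncam2 on the same strand and had 1.07 TPM in pool 1 and 1.24 TPM in pool 2.

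In the L1 family Nrcam was highest, and over all transcripts L1cam, Nfasc and Chl1 followed, while from protein-coding transcripts L1cam was lowest. L1cam (ENSMUSG00000031391.18, chromosome X, 73853778 to 73896105, minus strand), whose loss in people leads to enlarged ventricles and poor corticospinal tracts, had 29.20 TPM in pool 1 and 25.91 TPM in pool 2 (27.6 ± 2.33 TPM, 1958 and 1722 reads). Its main transcript, L1cam-203 with 1255 codons, held 51.9% of the TPM and 84.6% of the reads. The remaining TPM lay largely in short entries with retained introns, among them L1cam-209 at 18.5% and L1cam-205 at 12.8%, which held 3.63% and 5.21% of the reads. From coding transcripts alone L1cam averaged 14.9 ± 1.92 TPM. Arhgap4 overlaps L1cam on the same strand and had 2.83 TPM in pool 1 and 1.40 TPM in pool 2.

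The 2 neuronal exons of L1cam gave different readings. The 15-base exon was in 99.6% of the spanning TPM in pool 1 and in 99.5% in pool 2. The 12-base exon came to 28.9% and 26.9%, but most of that lay in L1cam-209, an entry of 705 bases with a retained intron. Among protein-coding transcripts, a reading chosen after the data were seen, it was 6.16% in pool 1 and 0.00% in pool 2, and by reads of all spanning transcripts it was 7.13%. The single full-length coding transcript with both exons, L1cam-202 of 1259 codons, was listed at 1.00 TPM in pool 1 and at 0 in pool 2, with 107 and 0 reads. Its deposited intervals, 0.214 to 2.72 TPM in pool 1 and up to 1.36 TPM in pool 2, overlapped.

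Nrcam (ENSMUSG00000020598.16, chromosome 12, 44328885 to 44601964, plus strand), a partner of neuropilin in axon guidance, was the highest of the family. It had 71.98 TPM in pool 1 and 70.55 TPM in pool 2, a mean of 71.3 ± 1.01 TPM from 5206 and 4978 reads. The M21 tables divide it among 17 transcripts, and 4 of these passed a share of 10% of its TPM or reads. Nrcam-201, with 1256 codons, includes exons of 30, 36 and 153 bases and had 16.48 TPM in pool 1 and 14.37 TPM in pool 2. Nrcam-202, with 1186 codons, lacks all of these and had 14.58 and 10.92 TPM. Nrcam-215, annotated as a target of nonsense-mediated decay, had 7.35 and 6.91 TPM, and the partial transcript Nrcam-214 of 916 bases had 13.12 and 12.99 TPM. Protein-coding transcripts held 62.5% of the Nrcam TPM and 67.9% of its reads, the lowest share of reads among the 10 genes.

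Of the group, Nrcam was the gene whose level depended most on the annotation. The older M4 tables hold only Nrcam-201 and Nrcam-202, and there the gene had 32.44 TPM in pool 1 and 29.04 TPM in pool 2. The M21 mean was 2.32 times the M4 mean, although the reads were close, at 4806 in pool 1 and 4479 in pool 2 in M4. In M21 the transcripts that M4 lacks held 60.5% of the Nrcam TPM and 37.9% of its reads, and Nrcam-201 and Nrcam-202 together came to 28.18 TPM. Chl1, with 6 transcripts in M21 and 1 in M4, was 1.60 times as high in M21. The other 8 genes differed by factors between 0.943 and 1.13. By the M4 levels Nrcam did not stand apart from Cntn2, and the values of Ncam1 and Cadm1 overlapped. The unclassified genes Gm48181 and Gm48182, on the same strand within Nrcam, had between 1.10 and 1.52 TPM.

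Nrcam also held 6 of the cassette exons counted here. Its 30-base exon was included in 59.6% of the spanning TPM in pool 1 and 60.2% in pool 2. The 36-base exon reached 71.7% and 75.8%, and the 153-base exon 33.9% and 34.3%. By reads these shares were 53.6%, 58.9% and 37.5%, and in M4, which has 1 transcript with all of these exons and 1 with none, each was 42.1%. The 18-base exon printed above came to 29.7% and 33.0%, but among protein-coding transcripts to 1.94% and 1.52%. The 12-base exon came to 13.9% in pool 1 and 17.9% in pool 2, all of it in Nrcam-215 in pool 1 and most of it there in pool 2, and among protein-coding transcripts to 0.00% and 4.54%. Most of the TPM with the 18-base and the 12-base exon lay in transcripts of Nrcam without the protein-coding type, among them Nrcam-215, a target of nonsense-mediated decay with 1134 annotated codons. A 62-base exon, which does not hold a whole number of codons, came to 13.9% in pool 1 and 14.2% in pool 2. It occurs only in Nrcam-215, so among protein-coding transcripts it was at 0%.

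Chl1 (ENSMUSG00000030077.11, chromosome 6, 103510586 to 103750211, plus strand), the close homolog of L1 that acts in migration of cortical neurons, had 15.92 TPM in pool 1 and 17.90 TPM in pool 2 (16.9 ± 1.40 TPM, 1712 and 1838 reads). Chl1-203 and Chl1-201 code for the same number of codons, 1209, and held 36.1% and 28.5% of the TPM. Chl1-204, with 1150 codons, held 20.2%. A 48-base exon that marks Chl1-204 was in 25.0% of the spanning TPM in pool 1 and 22.8% in pool 2. A 162-base exon that Chl1-204 skips was in 70.4% and 71.9%. By reads the shares of the 48-base and the 162-base exon were 20.3% and 77.3%. In M4, which has 1 transcript of Chl1, they were 0% and 100%.

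Nfasc (ENSMUSG00000026442.14, chromosome 1, 132564690 to 132741797, minus strand) codes for neurofascin, whose mucin-type neuronal form NF186 later gathers channels at the axon initial segment and nodes, and whose form NF155 is known from myelinating glia. The gene had 27.67 TPM in pool 1 and 24.96 TPM in pool 2 (26.3 ± 1.92 TPM, 2725 and 2484 reads). Nfasc-202, with 1240 codons and 3 exons of 153, 117 and 237 bases, taken here to mark the mucin-type form, had 7.70 TPM in pool 1 and 7.47 TPM in pool 2. The transcripts with the whole upstream exon pair of 116 and 205 bases, as in NF155, together had 4.15 and 2.49 TPM. None of those with reads carried the 3 exons. The 3 exons were in 65.0% of the spanning TPM in pool 1 and 75.0% in pool 2, and in 82.6% of the spanning reads. Nfasc-208, with 899 codons, had 7.40 TPM in pool 1 and 6.4 TPM in pool 2. It ends before the 205-base exon and the 3 exons, but it overlaps the 116-base exon. It was counted neither as containing that exon nor as splicing over it, so it has no part in the values just given. The 18-base exon printed above was in 40.0% and 47.5% of the spanning TPM and in 67.9% of the reads, and a 45-base exon in 78.4% and 88.6% of the TPM. Nfasc-206, an entry with a retained intron, held 17.9% of the TPM and 2.55% of the reads.

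The contactins were nearly level between the pools and 1 of them was the lowest gene of the group. Cntn2 (also TAG-1, ENSMUSG00000053024.14, chromosome 1, 132509427 to 132543256, minus strand), which marks early axons such as those of corticofugal neurons, had 28.87 TPM in pool 1 and 29.37 TPM in pool 2 (29.1 ± 0.354 TPM, 4090 and 4291 reads). Cntn2-201, with 1040 codons, held 82.8% of its TPM. Cntn1 (ENSMUSG00000055022.14, chromosome 15, 92051165 to 92341967, plus strand), a partner of Caspr at later paranodes, had 3.58 and 3.46 TPM (3.52 ± 0.0849 TPM, 404 reads in each pool). By mean TPM it ranked 11260 among protein-coding genes, against 5436 for Cntn2. The named transcripts of Cntn1 all have 1020 codons, so their coding sequences have the same length. No exon of Ncam2, Cntn1 or Cntn2 met the rule for a cassette exon, and the levels of Ncam2 and Cntn1 are below the 10 TPM that the rule asks for.

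Alcam (ENSMUSG00000022636.13, chromosome 16, 52248996 to 52454074, minus strand), an adhesion molecule of axons and also of leukocytes and vessels, was the gene with the widest spread. It had 13.58 TPM in pool 1 and 23.92 TPM in pool 2 (18.8 ± 7.31 TPM, 1408 and 2197 reads), and its deposited intervals, 12.6 to 15.5 and 21.6 to 25.97 TPM, did not overlap. Alcam-201, the main transcript with 583 codons and 93.0% of the reads, had 10.84 TPM in pool 1 and 15.13 TPM in pool 2. The partial transcript Alcam-205 had 0.21 and 3.59 TPM, from 7 and 121 reads, and it skips exons of 133 and 128 bases. Their inclusion was accordingly 98.1% in pool 1 and 82.1% in pool 2, the widest gap of any cassette exon here. That gap rests on Alcam-205, whose deposited intervals overlapped narrowly, up to 1.588 TPM in pool 1 and from 1.586 TPM in pool 2. By reads of both pools the inclusion was 96.4%, above the 95% limit of the cassette rule.

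Cadm1 (ENSMUSG00000032076.19, chromosome 9, 47530173 to 47857637, plus strand) was next to Ncam1 in level. The gene had 91.26 TPM in pool 1 and 78.14 TPM in pool 2 (84.7 ± 9.28 TPM, 5821 and 5351 reads). Its leading transcripts differ by exons of 84 and 33 bases. Cadm1-202, with 456 codons, has both exons and had 41.31 TPM in pool 1 and 31.97 TPM in pool 2. Cadm1-204, with 428 codons, lacks the exon of 84 bases and had 29.44 and 23.92 TPM. Cadm1-203, with 445 codons, lacks the exon of 33 bases printed above and had 11.31 and 14.13 TPM. The 84-base exon was in 63.3% of the spanning TPM in pool 1 and 65.1% in pool 2, and the 33-base exon in 84.7% and 78.7%. By reads, which weight long transcripts more, these shares were 52.5% and 77.1%.

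Across the group, 35 coding cassette exons were spanned by at least 10 TPM, and 24 of these, in 7 genes, had an inclusion between 5% and 95%. The count was 4 in Ncam1, 1 in L1cam, 6 in Nrcam, 2 in Chl1, 7 in Nfasc, 2 in Alcam and 2 in Cadm1. Among protein-coding transcripts alone, a reading chosen after the data were seen, some of the 24 fell below 5%. These were the L1cam exon of 12 bases (3.36%) and the Nrcam exons of 18, 12 and 62 bases (1.75%, 2.16% and 0%). Of the 24 exons, 19 hold a whole number of codons and 12 are at most 50 bases long. For 14 of them the shares of the pools differed by under 5 percentage points, and the widest gap was 16.0 points. Exons of 1 gene often sit in the same transcripts, so these counts are not of independent events.

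**Figure D2:**
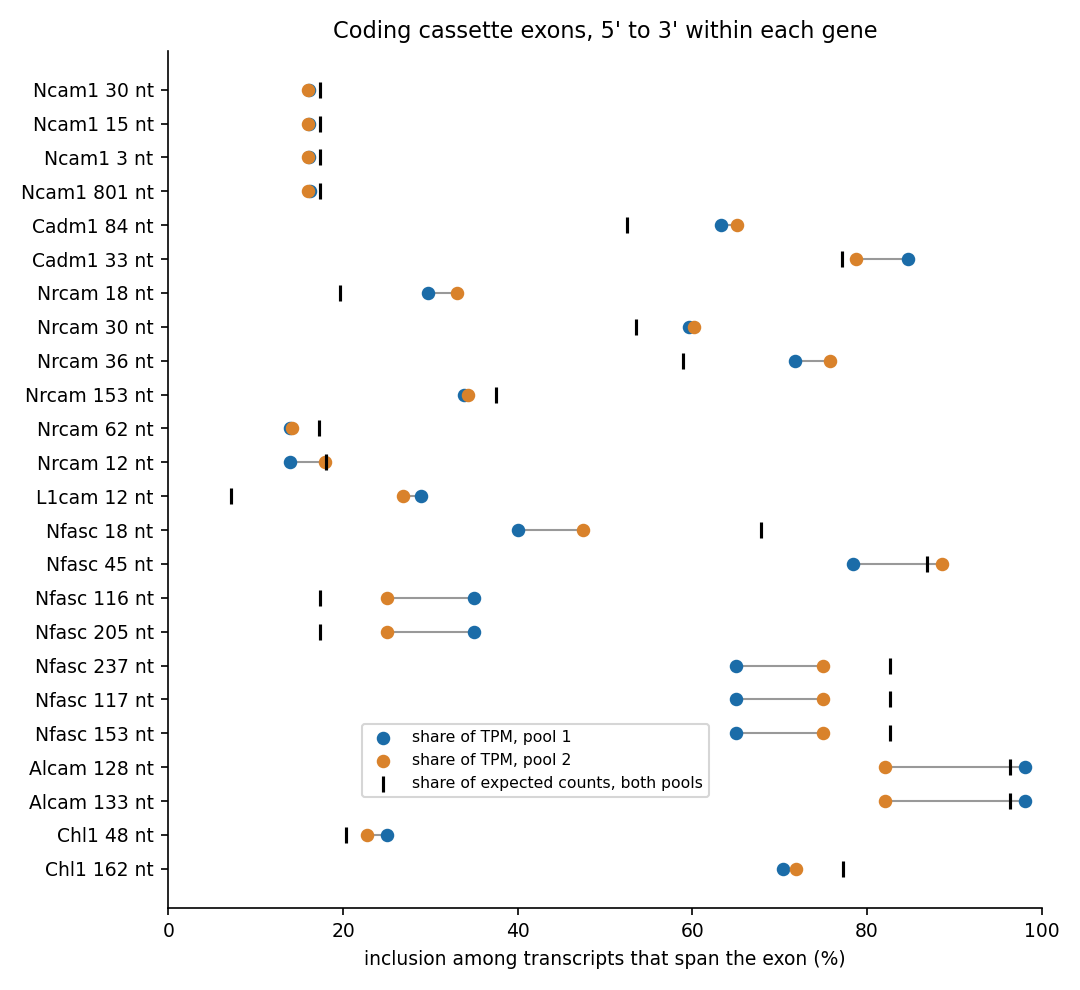
Inclusion of 24 coding cassette exons in percent of the TPM of transcripts that span them, in pool 1 (blue) and pool 2 (orange), with the share of expected counts of both pools (black ticks); exons are labelled by gene and length and run 5′ to 3′ within a gene. The Ncam1 exons coincide near 16%, and for the Nrcam and Chl1 exons and the 84-base Cadm1 exon the pools lie close together. For the 33-base Cadm1 exon and the exons of Nfasc and Alcam the pools lie further apart.

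A level in TPM weighs a short transcript more than its reads do. In L1cam, Nrcam, Ncam2 and Nfasc, protein-coding transcripts held under 80% of the TPM (54.0%, 62.5%, 66.1% and 67.7%). Among all detected protein-coding genes 33.0% were below that line, so a count of 4 in 10 is near the background. By reads only Nrcam was below it. The median coding share of TPM was 83.6% in the 10 genes and 91.2% over all detected protein-coding genes.

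**Figure D3:**
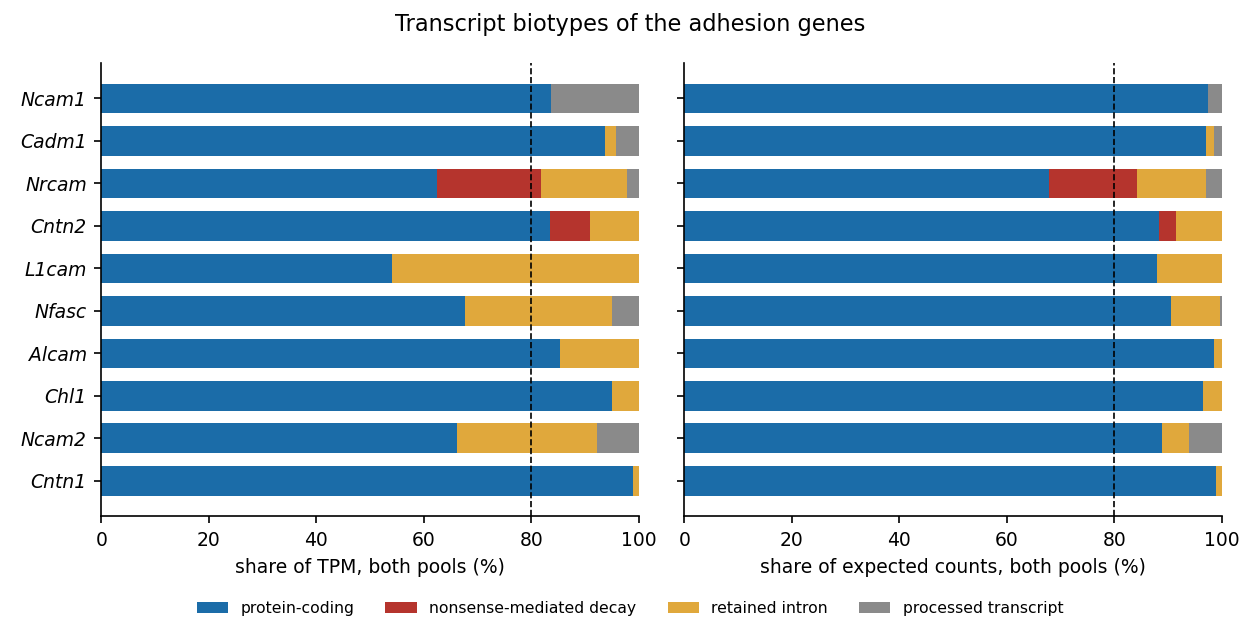
Share of each gene's TPM (left) and of its expected counts (right) by annotated transcript type, summed over both pools, in percent; the dashed line marks 80%. L1cam has 54.0% of its TPM but 87.9% of its reads in protein-coding transcripts, and Nrcam is the single gene under the line on both sides.

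Differences between the pools were described as log2 ratios of normalised counts, pool 1 over pool 2, with a 95% interval. These intervals treat reads as independent and cover counting error alone, not the spread between pools. Reads copied by PCR and not tagged per molecule are not independent, so the intervals can be too narrow even for that. Ncam1 had 14624 normalised counts in pool 1 and 10856 in pool 2, a log2 ratio of 0.43 (0.39 to 0.47). Alcam had 1445 normalised counts in pool 1 and 2140 in pool 2, a log2 ratio of -0.57 (-0.66 to -0.47). No other gene of the group differed by more than 25%. Over 9480 genes with a mean level of at least 10 TPM, 1.86% were that far higher in pool 1 and 2.84% that far higher in pool 2. Among the same genes 0.686% had a lower ratio than Alcam and 0.844% a higher one than Ncam1. The spread between the libraries over all genes, edgeR's common dispersion, was a coefficient of variation of 8.50%, which corresponds to an SD of 0.17 for a log2 ratio.

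The other genes lay between 0.26 for L1cam and -0.03 for Ncam2 and Chl1. Nfasc stood at 0.21, Cadm1 at 0.20, Nrcam at 0.14, Cntn1 at 0.08 and Cntn2 at 0.01. The values of 7 genes were higher in pool 1 and those of 3 were higher in pool 2. Of the 8 genes of at least 10 TPM, 6 were higher in pool 1, beside 58.5% of all genes of that level. The median log2 ratio of the 10 genes was 0.11, beside 0.02 for all genes of at least 10 TPM. Scaled to the spike-in RNAs, which moved the median of all genes to -0.17, Ncam1 stood at 0.27, a difference under 25%, and Alcam at -0.73, while Nrcam stood at -0.02, Cntn1 at -0.09 and Cntn2 at -0.16, each above that median. That scaling moves all genes by almost the same amount. On the scale of log2(TPM + 1) Ncam1 stood at 0.28, Alcam at -0.77 and Cntn2 at -0.02, and the TPM of Alcam was 1.76-fold higher in pool 2. In M4 the ratio of Ncam2 was 0.10. The deposited intervals of TPM did not overlap between the pools for Ncam1, Cadm1 and Alcam and overlapped for the other 7. The share of all genes with intervals apart was not counted, so no background stands beside these 3.

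**Figure D4:**
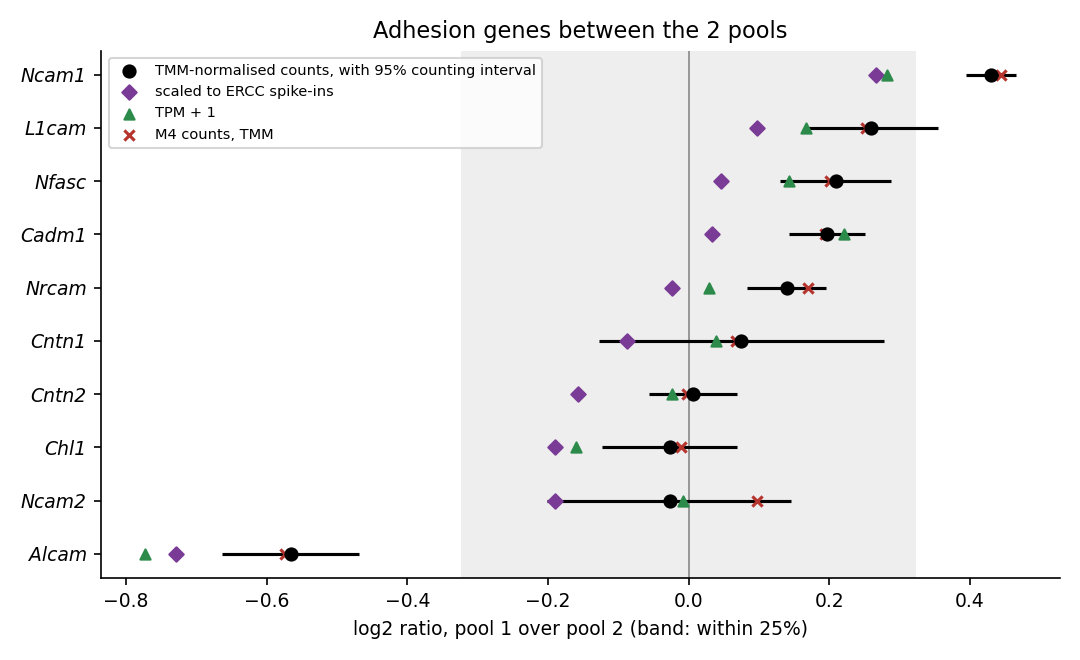
Log2 ratio of pool 1 over pool 2 for each gene from normalised counts (black, bars are 95% counting intervals), with the ratio scaled to spike-ins (purple), from TPM + 1 (green) and from M4 counts (red); the grey band marks differences of up to 25%. Ncam1 at 0.43 and Alcam at -0.57 lie outside the band at opposite ends, and with spike-in scaling every gene shifts to the left by almost the same amount.

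Markers of other cell types and of forebrain regions also differed between the pools. All 7 markers of mesenchyme and meninges were lower in pool 1. Their sum was 648.9 TPM in pool 1 against 788.9 TPM in pool 2, and their median ratio was -0.35 (log2). All 6 erythroid markers were also lower in pool 1 (11504 against 15379 TPM in pool 2), and 4 of 5 endothelial markers were higher in pool 1 (65.11 against 62.55 TPM in pool 2). Alcam moved in the direction of the mesenchyme and erythroid lists. Of the neuron markers 6 of 9 were higher in pool 1, as Ncam1 was, with a median log2 ratio of 0.13. Of the radial glia markers 7 of 8 were, with a median of 0.09. Among all genes of at least 10 TPM 58.5% were higher in pool 1, with a median of 0.02, so 6 of 9 is near that share. With spike-in scaling the medians of the neuron, radial glia and endothelial lists were -0.04, -0.07 and -0.06 and those of the mesenchyme and erythroid lists -0.52 and -0.59, against -0.17 for all genes. Of the 4 forebrain region genes 1 was higher in pool 1: Dlx1, a gene of the ventral telencephalon, at a log2 ratio of 0.52 (233.8 TPM in pool 1 against 162.0 TPM in pool 2). Emx1, of the dorsal telencephalon, was lower in pool 1 at -0.31 (55.88 against 69.70 TPM in pool 2), and so were Lhx2 at -0.20 and Tcf7l2 at -0.13. Sensory ganglion and neural crest markers (2 of 6 detected) had 6.02 TPM in all in pool 1 against 8.47 TPM in pool 2, and skeletal muscle markers (1 of 5) had 3.01 and 8.16 TPM, with Myod1 listed at 0 in pool 1. The part of these cells and regions in the differences of Ncam1 and Alcam was not tested.

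Other genes of the pathway give the setting. Of 26 further immunoglobulin adhesion genes 23 were detected, with a median level of 7.49 TPM. The highest were the nectins Nectin3 at 45.0 ± 4.09 TPM and Nectin2 at 36.4 ± 0.877 TPM and the lipid-anchored Ntm at 28.4 ± 1.92 TPM. The lowest was Thy1, known from mature projection neurons, which had 0.06 TPM in pool 1 and 0.00 TPM in pool 2. Sdk1 (0.92 and 1.04 TPM) and Cntn3 (0.88 and 0.90 TPM) were also below 1 TPM in a pool. Levels of the 10 genes thus overlapped with those of their relatives, and in M21 3 of the 10 were above the highest of these.

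Enzymes and partners that act on these molecules were present. Of 5 glycan enzymes 5 were detected, led by St8sia2, the polysialyltransferase of the embryo that modifies Ncam1 (43.59 TPM in pool 1 and 35.93 TPM in pool 2, a mean of 39.8 ± 5.42 TPM). Chst10, which finishes the HNK-1 sugar, followed at 22.4 ± 0.820 TPM, the second polysialyltransferase St8sia4 at 17.3 ± 0.0849 TPM, and B3gat2 was lowest at 2.06 ± 0.113 TPM. All 7 membrane skeleton genes were detected with a median of 92.7 TPM, among them Sptan1 (130 TPM), the ERM protein gene Rdx (129 TPM) and Ank2 (93.4 TPM), with Ank3, the ankyrin of the later initial segment, lowest at 51.9 ± 2.04 TPM. Of 17 partners and ligands 15 were detected, led by the phosphatase Ptprs (258 TPM), the growth cone protein Gap43 (169 TPM) and App (132 TPM). Cntnap1, the Caspr partner of Cntn1, had 0.36 and 0.45 TPM, and Tnr, a glial matrix ligand of contactins, had 1.08 and 0.59 TPM. All 3 shedding protease genes, whose products cut L1-type proteins from the membrane, were detected: Adam10 (62.0 TPM), Adam17 (28.5 TPM) and Bace1 (28.1 TPM). Of 8 splicing regulators 8 were detected, with Ptbp2 (312 TPM) and Ptbp1 (174 TPM), which repress neuronal exons, and Rbfox2 (94.5 TPM) highest. Srrm4, which promotes neuronal microexons, was at 17.2 ± 0.502 TPM, and Nova2 was lowest at 8.61 ± 0.255 TPM.

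**Figure D5:**
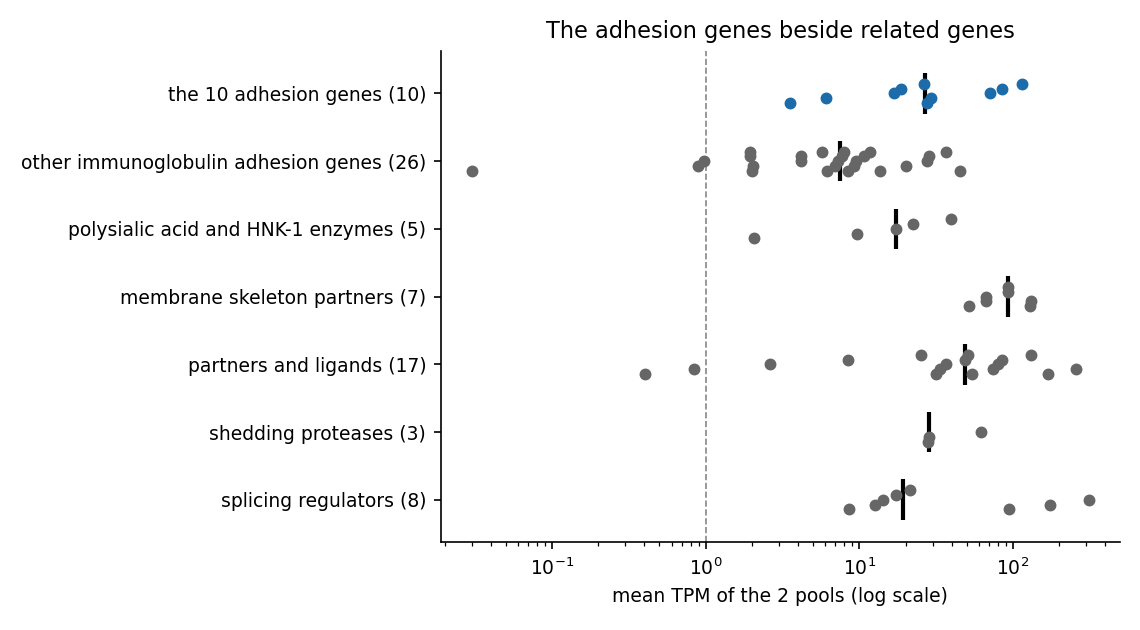
Mean TPM of the 2 pools (log axis) for each of the 10 genes (blue) and for the genes of the related lists (grey), with the median of each list as a black bar, the number of genes in brackets and a dashed line at 1 TPM. The 10 genes run from 3.52 to 114.7 TPM, and the membrane skeleton genes have the highest median.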

How the data were processed

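PolyA-plus RNA of 2 forebrain pools was measured. Per the labels' protocols, RNA was extracted with mirVana, and cDNA was primed with oligo-dT, amplified by PCR with SMARTer chemistry and tagmented, with ERCC spike-ins added. For mm10, tables of genes and of transcripts were deposited by the authors for each library, under GENCODE M4 and M21. The deposited expected counts are estimated reads, not normalised, with reads of several matches shared out. The deposited TPM values are scaled to a fixed total per library. The deposited FPKM values are per kilobase and sequenced depth, per the file headers. The posterior mean of the TPM and the bounds of its interval, also deposited by the authors, count as a score, and the coverage of these intervals is not given in the headers. Column names are those RSEM writes. The aligner, the quantifier with its version and the use of strand: not given in the sources used here.

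M21 was the main annotation and M4 the alternative. All 10 symbols matched 1 gene each. Spike-ins and entries that name no gene (5.74e-05% of counts in pool 1 and 9e-05% in pool 2) stayed out of library sizes. Expected counts were rounded for edgeR 4.0.16 (TMM, mean count of at least 10, prior count 1, 19063 genes), and DESeq2 1.42.0 size factors were an alternative. Intervals of ratios are exact binomial at 95%. Scripts ran in R 4.3.3 and in Python 3.11.15 with pandas 2.3.3, scipy 1.17.1 and numpy 2.4.6. The ratio step was tested on simulated data. A cassette exon is a coding exon that some transcripts contain and others splice over, and its inclusion is the share of TPM, among transcripts spanning it, that contains it. Transcripts that overlap the exon with other bounds, or as their first or last exon, were left out of both sides. Exons with 5 to 95% inclusion and at least 10 TPM spanning were counted. Transcripts with at least 10% of their gene's TPM or reads, and each gene's top coding one, were named. Of other lists the 3 highest, the lowest and any gene under 1 TPM in a library were named, as were overlapping genes of at least 1 TPM. A few other transcripts and exons were named after their values were seen. The members and lists were chosen with earlier results of these data known. Exon sequences came from the M21 transcripts. Values of 2 further listed genes are not reported here.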

Additional observations from a re-analysis of the deposited data

How the results depend on the processing

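All 10 genes stayed detected under each alternative except a minimum of 10 TPM, which 8 passed. The median level was 16.93 TPM from protein-coding transcripts only, 28.36 TPM from M4 and 27.2 TPM from posterior means, and 25.44 to 28.27 TPM with a pool left out. The median log2 ratio was -0.0555 with spike-in scaling, 0.13 in M4, 0.0384 from TPM + 0.1 and 0.0334 from TPM + 1, and it moved less with DESeq2 size factors or no filter. The count of genes more than 25% apart, 2 in the report, was 1 with spike-in scaling, 1 from TPM + 0.1, 1 from TPM + 1 and 0 at a threshold of 1.5-fold. The count of genes with under 80% coding TPM was 1 by expected counts and 2 in M4, and 4 to 5 with a pool left out. The count of cassette exons was 26 by posterior means, 22 by expected counts, 20 in M4 and 21 to 23 with a pool left out. By expected counts 20 of 24 inclusion values moved by more than the SD of the pools, and 12 of 24 did so in M4. From protein-coding transcripts only, a reading added after the data were seen, 7 of 24 did so. Levels moved so for 5 of 10 genes in M4 and for 6 of 10 from protein-coding transcripts. The cause of these shifts was not tested. Detection was the same, 10 genes, without either pool. No paired analysis was possible because the labels give 1 group. Counting error is large for transcripts of few reads, such as Ncam1-201 with 10 and 2 reads.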

Other observations

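Some full-length transcripts were listed with reads in 1 pool and at 0 in the other. Cntn1-201 had 114 estimated reads and 0.97 TPM in pool 1 and 0 reads in pool 2, while Cntn1-204, with the same 1020 codons, had 244 reads in pool 1 and 352 in pool 2. The gene as a whole had 404 reads in both. L1cam-202 showed the same pattern with 107 and 0 reads, while L1cam-203 had 1618 and 1496. In both cases the deposited intervals of the pools overlapped. Among relatives of Cadm1, Cadm3, named after its values were seen, had 9.86 TPM in pool 1 and 17.38 TPM in pool 2, a log2 ratio of -0.87. Beside it, and also named after their values were seen, Cadm4 stood at 0.25 and Cadm2 at 0.23, while Cadm1 was at 0.20. For Cadm2 the TPM went the other way, with 7.40 in pool 1 and 8.58 in pool 2.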
